A study of Rattus norvegicus with 6 samples.

Results

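DNA replication and cell division genes were followed in rat mammospheres, floating spheres that mammary cells form when they cannot attach to plastic. The set lists 46 genes whose products license replication origins, copy DNA, or carry a cell through mitosis. A gene was read from a probe set (a group of array probes reported as a single value) that the platform annotation assigns to that gene alone, and the probe set with the highest mean over the 6 arrays stood for the gene. By that rule 41 of the 46 genes had a value, out of 14217 genes read this way. All 41 passed the filter on dim probe sets that left 10424 genes to test. No probe set named Cdc6, Rrm2, Gins2, Tpx2 or Nek2 alone, so these 5 genes have no value here.

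Both groups were female Sprague Dawley rats, injected into the peritoneum every day for 21 days from the age of 55 days. The hCG group received recombinant human chorionic gonadotropin (r-hCG, OVIDREL) at 100 IU per day, a hormone of pregnancy whose receptor, shared with luteinizing hormone, is found mainly in the ovary. The Control group received phosphate buffered saline, its vehicle. The mammary glands were removed 21 days after the last injection, and a suspension enriched for mammary epithelial cells (the labels name no sort) was kept for 7 days in medium with EGF, basic fibroblast growth factor and heparin. RNA of the spheres was labelled in 2 cycles of amplification and read on 3 arrays per group, numbered 5, 6 and 7 in each. The rats were exposed to the hormone, the spheres in culture were not. The design text gives 3 animals per group but no label ties an array to an animal, so p-values measure only the spread between these arrays, which may be technical.

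Before a cell copies its DNA, each replication origin is licensed in G1 when Cdt1 and its partners load the ring of MCM proteins, the core of the replicative helicase. In S phase primase and DNA polymerase alpha start each new strand, other polymerases extend it on the PCNA clamp, and new histones and methylation marks are put in place behind the fork. Entry into mitosis is driven by Cdk1 with its cyclins. Kinetochores then join chromosomes to the spindle, a checkpoint holds the anaphase-promoting complex until every chromosome is attached, and cytokinesis divides the cell. Most of these genes are transcribed mainly in cycling cells, the replication genes mainly through E2F factors and the mitotic genes later, through the DREAM and MuvB complexes at the sequence called CHR (cell cycle genes homology region) with NF-Y at CCAAT boxes. In the mammary gland, division of the epithelium rises and falls with the ovarian cycle and in pregnancy.

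To show how replication and mitosis genes differ in sequence, the RefSeq promoter windows of 6 members are given (rat assembly GRCr8, 250 bases before the start site to 50 from it, 5′ to 3′ in the direction of the gene). They are the called genes Cdk1, Cenpf, Prim1 and Pola1, and the members with a window that had the smallest p in origin licensing (Mcm6) and in the spindle step (Nusap1). Capitals mark every match, on either strand, to the E2F words TTTCCCGC, TTTGGCGC, TTTCGCGC and TTTGCCGC, to the CHR words TTTGAA and TTCGAA, and to CCAAT. On the opposite strand, CCAAT appears as ATTGG and the E2F words of Mcm6 and Pola1 as GCGCGAAA and GCGCCAAA. The Mcm6 window (chr13:42404303-42404602, minus strand) holds a pair of E2F words that overlap, and 2 CCAAT words.
Mcm6: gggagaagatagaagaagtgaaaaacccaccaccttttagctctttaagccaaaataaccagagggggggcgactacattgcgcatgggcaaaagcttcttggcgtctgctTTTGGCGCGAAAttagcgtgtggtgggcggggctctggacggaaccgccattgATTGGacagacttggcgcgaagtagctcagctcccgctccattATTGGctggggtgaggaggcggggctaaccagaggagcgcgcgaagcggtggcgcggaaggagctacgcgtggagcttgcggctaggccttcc
The Pola1 window (chrX:62342306-62342605, minus strand) holds 1 E2F word and 1 CCAAT word.
Pola1: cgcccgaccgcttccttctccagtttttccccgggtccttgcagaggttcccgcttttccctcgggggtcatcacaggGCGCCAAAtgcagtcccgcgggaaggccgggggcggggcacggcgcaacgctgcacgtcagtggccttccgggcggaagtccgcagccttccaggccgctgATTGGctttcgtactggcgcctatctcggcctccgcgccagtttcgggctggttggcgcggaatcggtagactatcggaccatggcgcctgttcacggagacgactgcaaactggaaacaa
The Prim1 window (chr7:1031212-1031511, plus strand) holds only a CCAAT word, just past the start site.
Prim1: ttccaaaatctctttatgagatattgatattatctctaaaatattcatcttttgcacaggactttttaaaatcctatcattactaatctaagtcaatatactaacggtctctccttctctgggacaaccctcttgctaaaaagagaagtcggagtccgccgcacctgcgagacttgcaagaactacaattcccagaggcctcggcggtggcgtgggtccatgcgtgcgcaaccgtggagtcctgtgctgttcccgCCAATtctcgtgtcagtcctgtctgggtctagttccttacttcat
The Cdk1 window (chr20:19265043-19265342, plus strand) holds all 3 kinds: 1 E2F word, 2 CHR words and 3 CCAAT words.
Cdk1: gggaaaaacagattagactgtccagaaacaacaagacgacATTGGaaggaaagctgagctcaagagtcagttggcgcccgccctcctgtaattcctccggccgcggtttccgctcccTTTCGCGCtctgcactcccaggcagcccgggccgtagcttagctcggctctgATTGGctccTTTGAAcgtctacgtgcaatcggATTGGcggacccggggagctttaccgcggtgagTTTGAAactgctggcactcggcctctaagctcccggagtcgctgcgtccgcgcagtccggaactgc
The Cenpf window (chr13:103760837-103761136, minus strand) holds 1 CHR word and 3 CCAAT words.
Cenpf: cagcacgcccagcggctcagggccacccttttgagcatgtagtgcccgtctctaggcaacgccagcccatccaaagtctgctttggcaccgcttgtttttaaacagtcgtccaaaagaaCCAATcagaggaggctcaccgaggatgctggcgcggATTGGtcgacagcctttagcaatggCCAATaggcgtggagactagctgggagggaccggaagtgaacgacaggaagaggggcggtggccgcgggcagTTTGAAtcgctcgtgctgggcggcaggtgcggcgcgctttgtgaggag
The Nusap1 window (chr3:127057045-127057344, plus strand) holds 1 CHR word and 2 CCAAT words.
Nusap1: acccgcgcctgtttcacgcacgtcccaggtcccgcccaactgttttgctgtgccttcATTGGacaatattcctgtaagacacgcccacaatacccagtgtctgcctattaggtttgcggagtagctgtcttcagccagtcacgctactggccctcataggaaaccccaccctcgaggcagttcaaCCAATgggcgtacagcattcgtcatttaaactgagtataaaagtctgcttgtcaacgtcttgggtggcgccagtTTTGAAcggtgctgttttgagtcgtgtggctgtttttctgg
RefSeq gave a window for 38 of the 46 genes, 40 windows in all because Uhrf1 has 3. An E2F word was found in 11 of the 20 windows of the replication genes and in 1 of the 20 windows of the mitosis genes, that of Cdk1, against 2.14% of all 33469 windows of this length. All 6 licensing windows had such a word. The CHR words showed the opposite split, in 13 of 20 mitosis windows (6 of 7 for mitotic entry and 5 of 7 for kinetochore and checkpoint) and in 4 of 20 replication windows, against 19.7% of all windows. CCAAT was found in 17 of 20 mitosis windows and 13 of 20 replication windows, against 37.5%. These matches describe letters in a window and are not evidence of binding. Aurkb, Ccna2, Cdc6, Mcm4, Racgap1, Rrm2, Tpx2 and Ube2c had no entry.

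Nearly the whole set was higher in spheres of hCG-treated rats, but only 4 genes passed the test over all genes. Cdk1, Cenpf, Prim1 and Pola1 rose, and 0 of the 41 genes fell. Across all genes tested 1.82% passed (adjusted p under 0.05 by limma with Benjamini-Hochberg adjustment over 10424 genes), 1.01% with a higher and 0.815% with a lower value, so the 4 of 41 that rose stand beside a background of 1.01%. The differences of the members had a median of 0.55 on the log2 scale, 1.47-fold, against 0.03 for all genes, and 40 of the 41 were above 0, against 55.8% of all genes. At an unadjusted p under 0.05 there were 31 of 41 members, against 24.1% of all genes. Every hCG array was above every Control array in 28 of 41 members and below in 0, where the backgrounds are 19.3% and 12.3%. The direction was already known from earlier results on these arrays when the genes were listed, so these counts describe the set and are not independent evidence for its direction. In 5 members (Cenpf, Ccna2, Ttk, Aurkb and Tyms) the Control mean was below the filter level of 2.67, so they passed the filter only through higher hCG values. The calls and counts that include them therefore rest on dim Control levels. All 41 members remained in the test with no filter, where the same 4 were called. In RNA from whole spheres, more dividing cells and more of each transcript per dividing cell cannot be told apart.

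**Figure D1:**
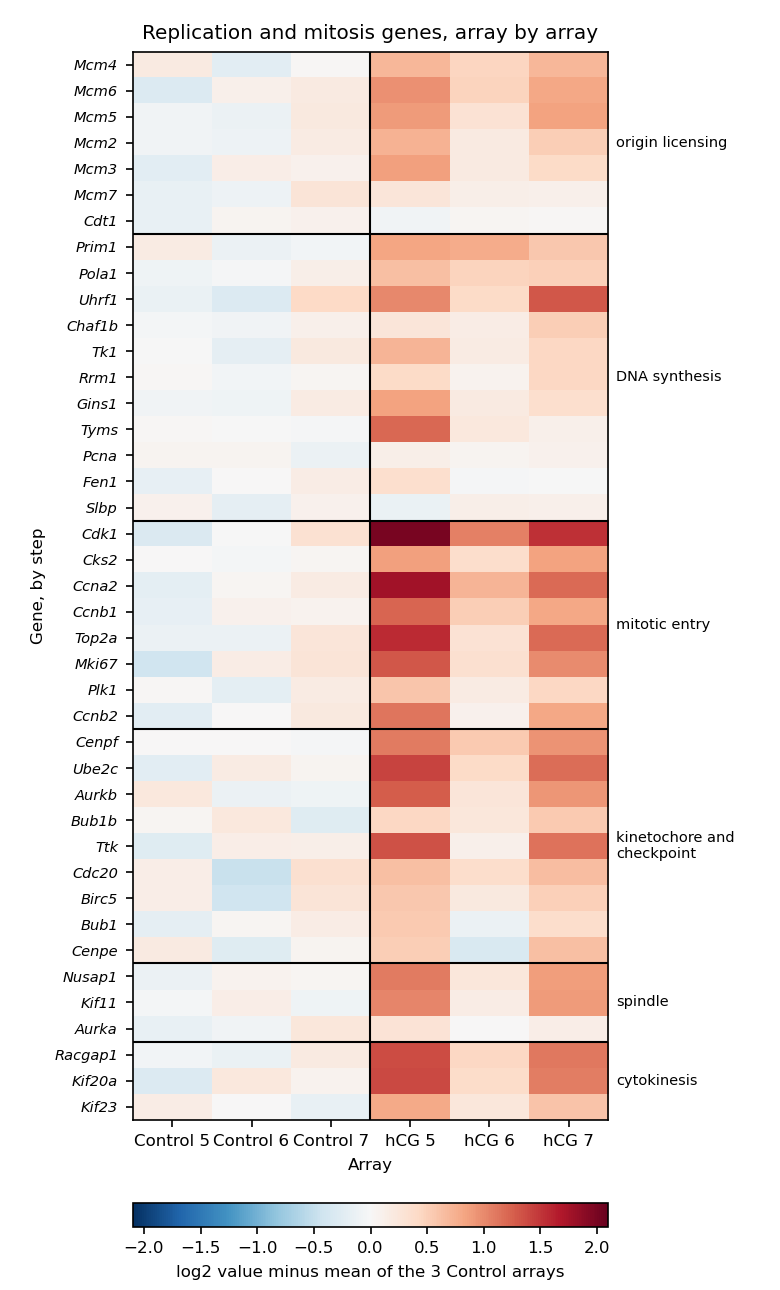
Each row is a gene and each column an array, and the colour is the log2 value minus the mean of the 3 Control arrays. The hCG 5 and hCG 7 columns are darkest in mitotic entry, with Cdk1 at the top, and the hCG 6 column is pale in most rows.

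Origin licensing genes were higher as a group, with no single call. Of 7 measured genes, 5 reached an unadjusted p under 0.05, against 24.1% of all genes, and 0 passed the adjusted test by limma. The median difference was 0.48. In 5 genes every hCG array was above every Control array, against 19.3% of all genes. Mcm4, a subunit of the helicase ring, had log2 values of 5.80, 5.39 and 5.62 on Control 5, 6 and 7 and 6.30, 6.05 and 6.30 on hCG 5, 6 and 7. The lowest hCG array lay above the highest Control array, and the difference was 0.62 (SE 0.13, limma adjusted p = 0.0624). Its partner Mcm6 read 4.72, 5.11 and 5.19 in Control and 5.96, 5.47 and 5.81 in hCG, again without overlap, with a difference of 0.74 (SE 0.17, limma adjusted p = 0.0751). Of the other ring subunits Mcm5 differed by 0.68 (SE 0.18), Mcm3 by 0.48 (SE 0.19), Mcm2 by 0.47 (SE 0.15) and Mcm7 by 0.16 (SE 0.13). Cdt1, which loads the ring, stood apart from them. It read 5.73, 5.94 and 5.98 in Control and 5.82, 5.93 and 5.90 in hCG, with the groups mixed and a difference of 0.00, whose 95% interval ran from -0.23 to 0.22.

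At the fork, Prim1 and Pola1, which act in starting a new strand, rose while the clamp did not pass the test. Of 11 measured genes 2 were called higher, against 1.01% of all genes, and 7 reached an unadjusted p under 0.05, against 24.1%. The median difference was 0.44. Prim1, the catalytic subunit of primase, had values of 5.35, 5.05 and 5.13 on Control 5, 6 and 7 and 6.00, 5.96 and 5.75 on hCG 5, 6 and 7. All 3 hCG arrays were close together and above Control, and hCG 6 stood near hCG 5. Prim1 rose by 0.73 (SE 0.11, limma adjusted p = 0.0382), 1.65-fold, with means of 5.18 ± 0.15 in the Control group and 5.90 ± 0.14 in the hCG group (SD, n = 3 each). Pola1 encodes the catalytic subunit of DNA polymerase alpha, which extends the primer that primase lays. It read 3.27, 3.33 and 3.47 in Control and 3.98, 3.82 and 3.86 in hCG, did not overlap, and rose by 0.53 (SE 0.09, limma adjusted p = 0.0454), 1.44-fold. Its means were 3.36 ± 0.11 in the Control group and 3.89 ± 0.08 in the hCG group (SD, n = 3 each). Their partner subunits, which are not members, were not called. Prim2 differed by 0.56 (SE 0.18, limma adjusted p = 0.129) and Pola2 by 0.02 (SE 0.09, limma adjusted p = 0.896).

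The other fork genes spread widely. Uhrf1, which brings the maintenance methyltransferase to newly copied DNA, had the largest difference of the step at 0.91 (SE 0.27, limma adjusted p = 0.114) and values of 4.38, 3.78 and 4.68 on the hCG arrays against 3.24, 3.09 and 3.79 on the Control arrays. The groups overlapped, since Control 7 was level with hCG 6. Tyms, which makes thymidylate, was high on 1 array: it read 3.77, 2.80 and 2.68 on hCG 5, 6 and 7 and 2.59, 2.56 and 2.55 in Control. Gins1, a helicase subunit, differed by 0.46 (SE 0.18), Tk1, which salvages thymidine, by 0.44 (SE 0.16), Chaf1b of the histone chaperone CAF-1 by 0.31 (SE 0.12), and Rrm1, the large subunit of ribonucleotide reductase, by 0.31 (SE 0.11). None of these 6 passed the adjusted test by limma, and 5 of them reached an unadjusted p under 0.05, against 24.1% of all genes. Pcna, the sliding clamp, differed by 0.09 (SE 0.08), with 8.88, 8.87 and 8.70 in Control and 8.94, 8.87 and 8.90 in hCG. Fen1, which trims Okazaki fragments, differed by 0.11 (SE 0.14), and Slbp, which binds the stem-loop of histone messages, by 0.04 (SE 0.12). Slbp read 5.85, 5.56 and 5.85 in Control and 5.62, 5.88 and 5.86 in hCG, so its groups overlapped.

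**Figure D2:**
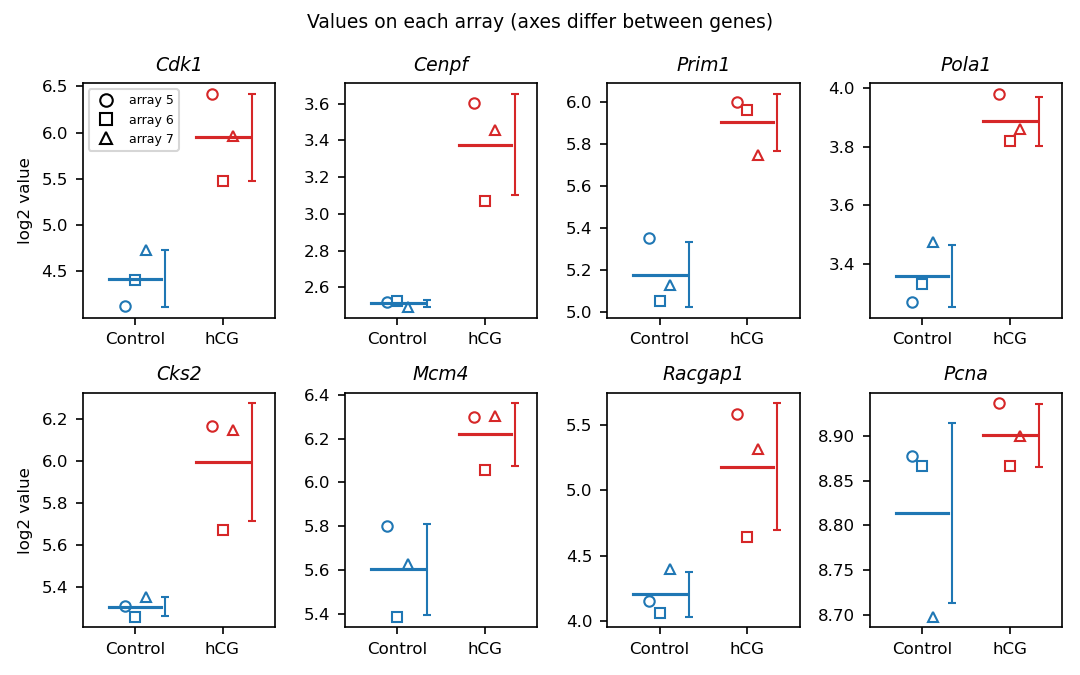
The log2 values of 8 genes are plotted array by array, with a marker for each array number, a line at the group mean and a bar of 1 SD beside it (n = 3 per group), on axes that differ between genes. Cdk1, Cenpf, Prim1 and Pola1 are the called members, and Pcna is the panel in which the groups overlap.

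Genes of mitotic entry had the highest mean difference of the 6 steps, 0.91 against 0.82 for cytokinesis, though the median was higher in cytokinesis (0.95 against 0.86). All 8 reached an unadjusted p under 0.05, against 24.1% of all genes, and Cdk1 was called, against 1.01% called higher. In 7 genes every hCG array was above every Control array, against 19.3% of all genes. The gap was narrow for Plk1, at 4.555 on hCG 6 against 4.550 on Control 7. Cdk1, the kinase that drives a cell into mitosis, read 4.12, 4.41 and 4.73 on Control 5, 6 and 7 and 6.42, 5.47 and 5.96 on hCG 5, 6 and 7. It rose by 1.53 (SE 0.26, limma adjusted p = 0.0439), 2.88-fold, the largest difference among the 41 members. The means were 4.42 ± 0.31 in the Control group and 5.95 ± 0.47 in the hCG group (SD, n = 3 each). Even hCG 6, the lowest hCG array, was above all 3 Control arrays. Cks2, a small protein that binds Cdk1, read 5.31, 5.26 and 5.35 in Control, a narrow range, and 6.17, 5.67 and 6.15 in hCG. The difference was 0.69 (SE 0.14, limma adjusted p = 0.0582), and hCG 6 lay between the Control arrays and the other hCG arrays. Cyclin A2 (Ccna2), whose Control values of 2.18, 2.43 and 2.56 were all below the filter level, differed by 1.22 (SE 0.26, limma adjusted p = 0.0612), and the B cyclins Ccnb1 and Ccnb2 by 0.85 (SE 0.18) and 0.67 (SE 0.26). Top2a, the topoisomerase that untangles sister chromatids, differed by 1.02 (SE 0.31), and Mki67, the common marker of cycling cells, by 0.88 (SE 0.28). Cdk1, Ccna2 and Top2a were the 3 members with a difference of at least 2-fold. The smallest difference was that of Plk1, a kinase of mitotic entry and the spindle, at 0.40 (SE 0.14), with 4.41, 4.17 and 4.55 in Control and 4.95, 4.56 and 4.81 in hCG.

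Among 9 kinetochore and checkpoint genes Cenpf was called, against 1.01% of all genes called higher. An unadjusted p under 0.05 was reached by 6, against 24.1% of all genes, and the median difference was 0.55. In 5 genes every hCG array was above every Control array, against 19.3% of all genes. The gap was narrow for Bub1b, at 3.545 on hCG 6 against 3.539 on Control 6. Cenpf, a large kinetochore protein that builds up in G2, hardly varied in Control, at 2.52, 2.53 and 2.49, and read 3.61, 3.07 and 3.46 in hCG. It rose by 0.86 (SE 0.14, limma adjusted p = 0.0414), 1.82-fold, with means of 2.51 ± 0.02 in the Control group and 3.38 ± 0.28 in the hCG group (SD, n = 3 each). All 3 Control values lay below the filter level of 2.67, which marks the dimmest 40% of probe sets, so hCG values alone carried the gene into the test. With no filter its limma adjusted p was 0.0355. Ube2c, the ubiquitin-conjugating enzyme of the anaphase-promoting complex, read 4.01, 4.42 and 4.29 in Control and 5.65, 4.63 and 5.41 in hCG. The groups did not overlap and the difference was 0.99 (SE 0.26, limma adjusted p = 0.0929), with hCG 6 little above the highest Control array. Its activator Cdc20 differed by 0.55 (SE 0.21). The checkpoint kinases Ttk and Bub1 differed by 0.87 (SE 0.31) and 0.27 (SE 0.19), and the checkpoint protein Bub1b by 0.41 (SE 0.15). Aurkb and Birc5, partners in the chromosomal passenger complex that corrects faulty attachments, differed by 0.82 (SE 0.25) and 0.43 (SE 0.19). Bub1 was the nearest to 0 and read 4.09, 4.32 and 4.44 in Control and 4.84, 4.16 and 4.65 in hCG, where hCG 6 fell inside the Control range. Cenpe, a kinetochore motor, differed by 0.27 (SE 0.26), with an interval from -0.34 to 0.89. It read 3.32, 2.48 and 3.44 on hCG 5, 6 and 7, and the hCG 6 value was the lowest of all 6 arrays.

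In the spindle step 3 genes were measured, and 0 passed the adjusted test by limma. An unadjusted p under 0.05 was reached by 2, against 24.1% of all genes. Nusap1, which bundles spindle microtubules around chromosomes, read 3.27, 3.46 and 3.43 in Control and 4.48, 3.62 and 4.26 in hCG, a difference of 0.73 (SE 0.21, limma adjusted p = 0.111). Kif11, the motor that pushes the spindle poles apart, read 2.68, 2.87 and 2.63 in Control and 3.76, 2.87 and 3.61 in hCG. On hCG 6 its value equalled that of the highest Control array, Control 6, at 2 decimals. Aurka, the kinase of the spindle poles, read 3.79, 3.86 and 4.18 in Control and 4.23, 3.96 and 4.08 in hCG, with overlap and a difference of 0.15 (SE 0.13).

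All 3 cytokinesis genes reached an unadjusted p under 0.05 without overlap, and 0 passed the adjusted test by limma. Of all genes, 24.1% reached that unadjusted p and 19.3% had every hCG array above every Control array. Racgap1 and Kif23 form centralspindlin, the complex at the middle of the dividing cell, and Kif20a carries the passenger complex there. Racgap1 read 4.15, 4.06 and 4.40 in Control and 5.58, 4.64 and 5.32 in hCG, a difference of 0.97 (SE 0.24, limma adjusted p = 0.0814). Kif20a read 3.45, 3.96 and 3.81 in Control and 5.12, 4.13 and 4.81 in hCG, a difference of 0.95 (SE 0.26, limma adjusted p = 0.102). Kif23 was 4.35, 4.21 and 4.03 in Control and 4.99, 4.43 and 4.80 in hCG, a difference of 0.54 (SE 0.16, limma adjusted p = 0.111). In all 3 genes hCG 6 lay nearer to Control than to the other hCG arrays.

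**Figure D3:**
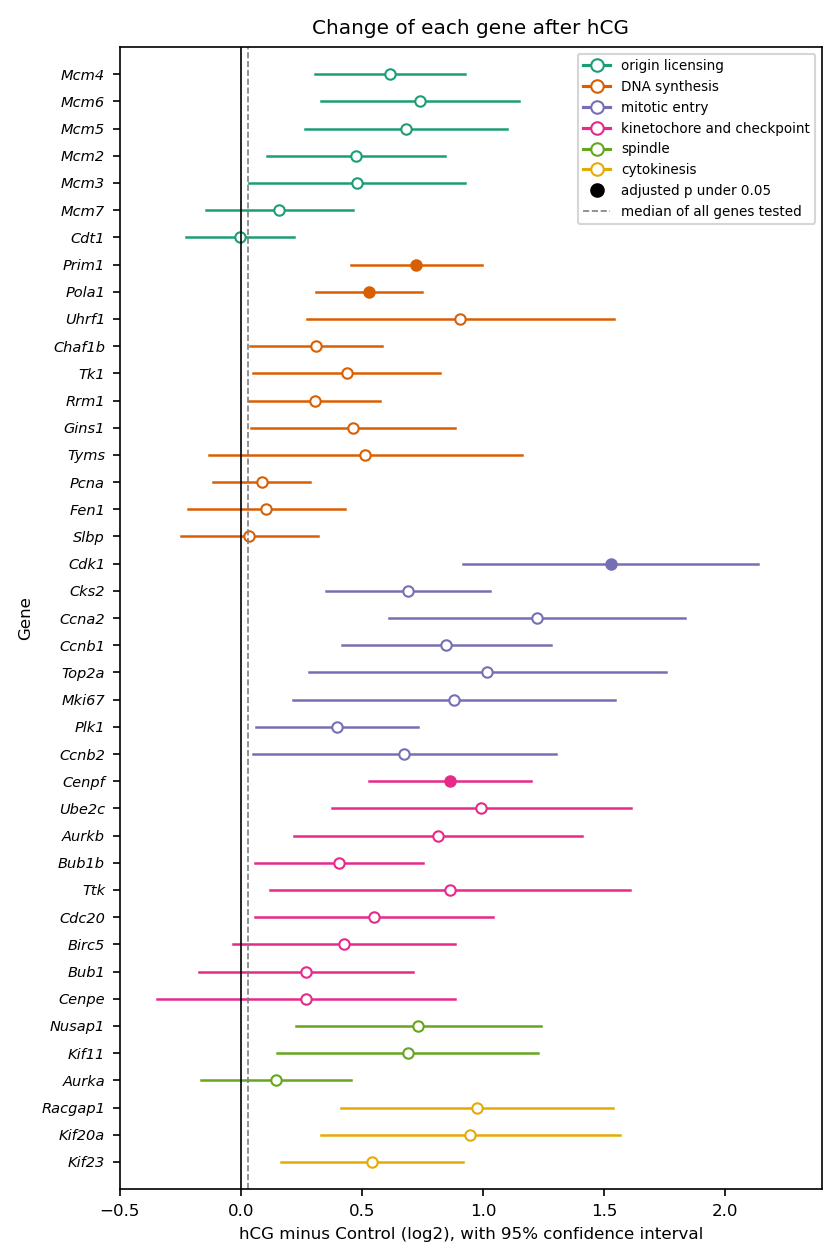
The difference of each of the 41 genes (hCG minus Control, log2) is shown with its 95% confidence interval from limma, coloured by step, and filled points mark adjusted p under 0.05. Points lie right of 0 for every gene but Cdt1, and the 4 filled points are Prim1, Pola1, Cdk1 and Cenpf.

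Read array by array, the set was high on hCG 5 and hCG 7 and only slightly high on hCG 6. With each gene set to 0 at its Control mean, the mean of the 41 genes was -0.07, -0.04 and 0.11 on Control 5, 6 and 7 and 0.85, 0.27 and 0.66 on hCG 5, 6 and 7. Array hCG 6 was therefore above every Control array and well below the other hCG arrays. Among the 3 hCG arrays it was the lowest in 36 of the 41 members, against 38.4% of all genes, and in 23 of 23 mitosis genes against 13 of 18 replication genes. The exceptions were Mcm7, Tyms and Prim1, lowest on hCG 7, and Cdt1 and Slbp, lowest on hCG 5. The full order hCG 5, then hCG 7, then hCG 6 was found in 29 of 41 members, against 25.6% of all genes. Both hCG 5 and hCG 7 were above all Control arrays in 36 of 41 members, against 26.5% of all genes, and in 8 of these hCG 6 was the array that made the groups overlap.

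Mitosis genes stood further above Control than replication genes on hCG 5 and hCG 7, and by about the same on hCG 6. The mean of the 23 mitosis genes was 1.05, 0.29 and 0.84 on hCG 5, 6 and 7, and that of the 18 replication genes was 0.58, 0.24 and 0.43. Mitosis minus replication was thus 0.47, 0.05 and 0.41, beside -0.03, 0.05 and -0.01 on Control 5, 6 and 7. On hCG 6 the gap did not exceed that of Control 6 at 2 decimals. By step, the hCG levels were 0.62, 0.25 and 0.48 for origin licensing and 0.56, 0.24 and 0.40 for DNA synthesis. Mitotic entry stood highest on every hCG array, at 1.30, 0.44 and 0.98. The later steps followed, with 0.87, 0.19 and 0.76 for kinetochore and checkpoint, 0.80, 0.13 and 0.63 for the spindle and 1.18, 0.35 and 0.93 for cytokinesis. In each of the 6 steps all hCG arrays were above all Control arrays, whose highest step level was 0.19, for mitotic entry on Control 7. The hCG spread exceeded the Control spread in 29 of 41 members and in 19 of the 23 mitosis genes, by the SD of 3 arrays. Over all genes tested it did so in 3536 of 10424.

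**Figure D4:**
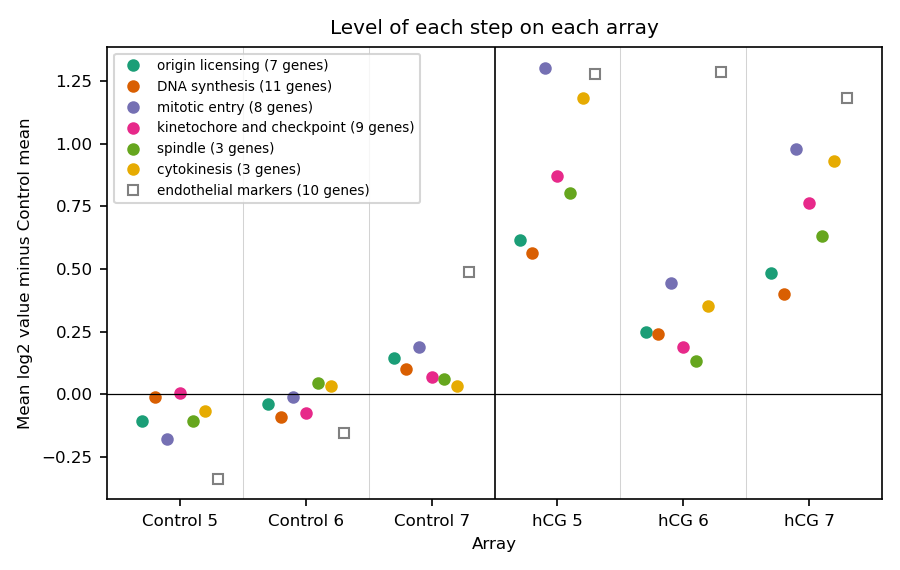
For each array the mean log2 value of the genes of each step is plotted relative to the Control mean, beside the mean of 10 endothelial marker genes (open squares). Circles of hCG 6 lie between Control and the other hCG arrays, from 0.13 for the spindle to 0.44 for mitotic entry, and the endothelial squares are level on all 3 hCG arrays.

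Which genes were called depended on which arrays were used. Without hCG 6, 15 of 41 members were higher at adjusted p under 0.05 by limma, against 1.78% of all genes higher in that fit. They were 14 of the 23 mitosis genes and 1 of the 18 replication genes, Mcm5. Mitotic entry then had 6 calls of 8 (Cdk1, Ccna2, Ccnb1, Ccnb2, Cks2 and Top2a) and kinetochore and checkpoint 4 of 9 (Cenpf, Ube2c, Ttk and Aurkb). The spindle had 2 of 3 (Nusap1 and Kif11) and cytokinesis 2 of 3 (Racgap1 and Kif20a). Among these calls Ccna2, Cenpf, Ttk and Aurkb had a Control mean below the filter level. The medians without hCG 6 were 1.08 for mitotic entry, 1.23 for cytokinesis, 0.96 for the spindle, 0.64 for kinetochore and checkpoint, 0.63 for licensing and 0.56 for synthesis. Prim1 and Pola1, whose values on hCG 6 were like those of the other hCG arrays, kept differences of 0.70 and 0.56 but missed the threshold at limma adjusted p = 0.0569 and 0.0551. Leaving out an array after seeing that it stands apart favours calls, so these counts describe the other 5 arrays and no more. Without Control 7, the same 4 members were called, against 3.34% of all genes higher in that fit. When Control 5, Control 6, hCG 5 or hCG 7 was the array left out, limma called 0 members and 0 genes of any kind, while 19, 23, 18 and 19 members in turn reached an unadjusted p under 0.05. The shares of all genes at that level in the same 4 fits were 18.7%, 18.5%, 15.8% and 14.0%. The median difference of the members stayed between 0.48 and 0.70 in these 6 fits.

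Other measures also separated the arrays. The poly-A spikes, bacterial transcripts that are added to the RNA before labelling, had means over 24 probe sets of 5.43, 5.53 and 5.71 on Control 5, 6 and 7 and 4.32, 4.90 and 4.31 on hCG 5, 6 and 7. They were lower in hCG (5.56 ± 0.14 against 4.51 ± 0.34, SD, n = 3 each; exact two-sided permutation p = 0.1, the smallest that 3 against 3 allows), and hCG 6 was again the hCG array nearest to Control. The hybridisation spikes, added later, overlapped between the groups (exact p = 0.2), as did the difference between the 3′ and 5′ probe sets of Actb (exact p = 0.8) and of Gapdh (exact p = 0.3). Their part in the result was not tested.

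Markers of cell types were read as the labels name an epithelial enrichment. Of the listed epithelial genes, 9 of 10 luminal and 8 of 10 basal ones passed the filter, among them Krt8, Krt18, Epcam, Krt5 and Krt14. Muc1, Cnn1 and Oxtr fell below it. All 10 fibroblast genes listed, 10 of 13 endothelial genes and 5 of 10 macrophage genes also passed. Median levels of the tested markers were 11.2 for fibroblast, 6.09 for luminal, 5.65 for basal, 4.56 for endothelial and 3.64 for macrophage genes. The median over all genes tested was 5.905. The lowest value in the whole table was 0.74, so a value above 0 does not show that a marker was detected. Among endothelial markers 5 of 10 rose (Emcn, Esam, Erg, Sox17 and Sox18), against 1.01% of all genes called higher. All 10 reached an unadjusted p under 0.05, against 24.1% of all genes. Their mean was -0.34, -0.15 and 0.49 on Control 5, 6 and 7 and 1.28, 1.28 and 1.18 on hCG 5, 6 and 7. It was thus level across the hCG arrays, while the division genes were lowest on hCG 6. The mean of the fibroblast markers was 0.03, -0.05 and 0.02 on the Control arrays and 0.30, 0.06 and 0.24 on the hCG arrays, in the same order, where Lum rose and Dpt fell, and hCG 6 was the lowest hCG array. Luminal markers ran -0.74, 0.17 and 0.57 in Control and -0.32, -0.52 and -0.64 in hCG, and Cd24 fell. Basal markers ran -0.61, 0.13 and 0.48 in Control and 0.45, 0.70 and 0.77 in hCG, with 0 calls by limma. At an unadjusted p under 0.05 there were 3 of 8, against 24.1% of all genes. The macrophage markers ran 0.48, -0.18 and -0.30 in Control and -0.50, 0.02 and -0.13 in hCG, also with 0 calls by limma. Among them 3 of 5 reached an unadjusted p under 0.05, against the same 24.1%. The part of these cell types in the result was not tested.

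The rest of the pathway, read from a list of 154 further replication and mitosis genes of which 107 were tested, was higher by less. By limma 0 of the 107 were called, beside the background of 1.82%. At an unadjusted p under 0.05 there were 49, against 24.1% of all genes, and 99 were above 0, against 55.8%. The median difference was 0.28. Every hCG array was above every Control array in 43 genes and below in 4, where the backgrounds are 19.3% and 12.3%. Their mean was -0.05, 0.00 and 0.05 on the Control arrays numbered 5, 6 and 7, and 0.44, 0.15 and 0.36 on the hCG arrays of those numbers, the same order as in the members. Other spindle and cytokinesis genes had the highest median, 0.55 over 17 genes. Among them Dlgap5, a spindle protein, differed by 0.76 (SE 0.16, limma adjusted p = 0.06), the motor Kif20b by 0.99 (SE 0.21, limma adjusted p = 0.0622) and the tubulin-binding protein Stmn1 by 1.05 (SE 0.23, limma adjusted p = 0.0671). The 25 other kinetochore and checkpoint genes had a median of 0.36, with Mad2l1, a core checkpoint protein, at 0.74 (SE 0.17, limma adjusted p = 0.0724). The 13 genes of chromosome condensation and cohesion were all above 0, with a median of 0.17, and the condensin subunit Ncapd2 differed by 0.66 (SE 0.13, limma adjusted p = 0.054).

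Fork and nucleotide genes beyond the members had a median of 0.23 over 27 genes, and the clamp loader subunit Rfc3 differed by 0.56 (SE 0.13, limma adjusted p = 0.0771). The 11 other origin and helicase genes had a median of 0.19. Within them Gmnn, which encodes geminin, the inhibitor of Cdt1, read 6.06, 5.87 and 5.43 in Control and 5.12, 5.28 and 5.22 in hCG. Every hCG array was below every Control array, the difference was -0.58 (SE 0.16, limma adjusted p = 0.107), and it did not pass the test with all arrays. The 15 other kinases, cyclins and regulators had a median of 0.18. Cks1b, the relative of Cks2, differed by 0.48 (SE 0.10, limma adjusted p = 0.0573) and Wee1, the kinase that holds Cdk1 inactive, by 0.70 (SE 0.16, limma adjusted p = 0.0726). Of the listed transcription regulators of these genes, E2f7, a repressor, differed by 0.35 (SE 0.20), Foxm1 by 0.18 (SE 0.16), Lin54 by 0.17 (SE 0.10), E2f1 by 0.15 (SE 0.12), Lin9 by 0.11 (SE 0.14) and Mybl2 by -0.05 (SE 0.10). None of the 6 passed the test, E2f2 and E2f8 were below the filter, and E2f3 had no probe set of its own. Without hCG 6, 13 of the 107 genes were called, all higher, against 1.78% of all genes higher in that fit. They were Aspm, Cenpu, Cenpw, Cks1b, Dlgap5, Kif20b, Kif2c, Kifc1, Mad2l1, Ncaph, Prc1, Spc24 and Wee1. Without Control 7, 6 of the 107 were called higher (Dlgap5, Ect2, Ncapd2, Rfc4, Stmn1 and Tubb5), against 3.34% of all genes higher in that fit. Gmnn was called lower there.

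A list of histone genes, most of whose transcripts are made in S phase, held 1 call, and it was lower. Histone messages of S phase end in a stem-loop in place of a poly-A tail, and 3′ labelling starts from that tail. Of 22 listed genes 7 had a probe set of their own and 4 were tested, of which 1 fell, against 0.815% of all genes. Hist4h4, a gene for histone H4, read 5.91, 6.16 and 5.66 in Control and 4.11, 4.69 and 4.16 in hCG, with every hCG array below every Control array, and it differed by -1.59 (SE 0.19, limma adjusted p = 0.0328). The others tested were not called: H1f2 differed by 0.06 (SE 0.10), Hist2h2be by 0.03 (SE 0.09) and H2ac25 by -0.18 (SE 0.10). For all 4 genes the mean was 0.05, 0.10 and -0.15 on Control 5, 6 and 7 and -0.43, -0.33 and -0.50 on hCG 5, 6 and 7, and this level rests mainly on Hist4h4.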

How the data were processed

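Values came from the authors' deposited table of log2 expression, 31099 probe sets on 6 arrays. RMA, MAS5 and limma are named, without roles, in the submitters' processing notes. The log base and normalization are not given in the sources used here: log2 was inferred from values between 0.74 and 13.1 with array medians from 3.44 to 3.48. A change common to most genes would be lost by normalization between arrays, and arrays that are normalized together are not fully independent.

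The 57 control probe sets and the dimmest 40% of the others were left out, which left 18625. Of 31042 probe sets, 20826 named 1 gene, 436 several and 9780 none. Symbols were updated by Entrez number with a RefSeq table (GRCr8). Groups were compared with limma 3.58.1 (R 4.3.3, lmFit and eBayes, no block, two-sided) over all 18625. Benjamini-Hochberg adjustment was then made over the 10424 probe sets that stand for genes. Intervals are limma's at 95%. Members and lists were chosen with earlier results of these data known. Values on every array are given for called members and, by step, for the 2 of smallest p and the 1 nearest 0, and for further genes picked once their values were known. The alternatives took other filters, scalings and eBayes settings, array weights, a replicate block, probe-set averages and each array left out. The number of arrays limits precision.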

Additional observations from a re-analysis of the deposited data

How the results depend on the processing

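The 41 member differences were recomputed under 16 other settings. Of the resulting values 564 kept their direction and their side of the threshold, 40 passed it where they had not, 22 no longer passed and 9 changed sign. Most of the 564 came from members that were called in neither fit. The 22 all came from the 4 members called in the main fit. The sign changes were in genes near 0. Cdt1 became 0.0103 with median centring and 0.0477 with array weights, and ran from -0.0775 to 0.0448 with single arrays left out. In those fits Slbp ran from -0.0594 to 0.1195 and Fen1 from -0.0178 to 0.1847.

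The count of members called was 2 with the dimmest 60% left out, where 20 members were tested, and 30 with array weights. Those weights were 7.25 for hCG 7, 0.23 for Control 7 and from 0.68 to 1.05 for the other arrays, so that fit leaned mainly on hCG 7. With single arrays left out it ran from 0 (without Control 5, Control 6, hCG 5 or hCG 7) to 15 (without hCG 6). Over all genes the count was 306 with a variance trend, 2663 with array weights and 0 to 584 with single arrays left out, the highest without Control 7. Of the further pathway genes and histones, where the main count was 1 (Hist4h4), 2 were called with no filter, with median centring and with the mean of probe sets, 3 with a variance trend, 50 with array weights, and 0 to 14 with single arrays left out, 8 without Control 7. The level of DNA synthesis was 0.25 with the dimmest 60% left out, and the spindle had no gene left there. Over the last 150 bases of the promoter windows the E2F words were in 0 mitosis windows and the CHR words in 2 replication windows.

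With the array number as a replicate block, 118 genes and 1 member, Uhrf1, were called, and Cdk1, Cenpf, Prim1 and Pola1 had limma adjusted p = 0.0683, 0.0647, 0.0573 and 0.0942. Arrays of the same number did not deviate together (r = -0.09, 0.13 and 0.00 for numbers 5, 6 and 7), so the numbers were not taken as pairs. A planned pseudocount was not run, since the table holds log2 values. The cause of these shifts was not tested.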

Other observations

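Several members had further probe sets, which entered the values above only where all probe sets of a gene were averaged. With that average the level of cytokinesis was 0.63 in place of 0.82, and Tk1 differed by 0.27 in place of 0.44. Among 10 members there were 15, of which 11 were dimmer than the filter and 4 were tested. In a limma fit over all probe sets with no filter, all 4 were above 0: 0.64 (SE 0.24) for Ccnb1, 0.82 (SE 0.24) for Top2a, 0.25 (SE 0.08) for Cdc20 and 0.23 (SE 0.15) for Nusap1. The second values of Ccnb1 and Top2a were close to those of the brightest probe sets, while those of Cdc20 and Nusap1 were smaller, so the size of the difference in the latter genes depends on the probe set read.

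Rrm2, the small subunit of ribonucleotide reductase, has no probe set of its own, but 2 probe sets name it together with Rrm2l1, a near copy. The brighter read 7.06, 7.11 and 6.85 on Control 5, 6 and 7 and 7.33, 7.03 and 7.36 on hCG 5, 6 and 7, a difference of 0.23 (SE 0.12). The other differed by 0.21 (SE 0.29). Signals of the 2 genes cannot be told apart there, and hCG 6 was again the lowest hCG array.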
